A study of Rattus norvegicus with 12 samples.

Results

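The 10 genes described here are Ensembl gene ids without a name, out of 30560 genes counted in mitochondrial preparations of rat muscle. An earlier analysis of the same 12 libraries had found them lower after proteinase K, and lower in mitoplasts, than in bead-captured mitochondria, as the 13 messenger RNAs of the mitochondrial chromosome were. Between centrifuged and bead-captured mitochondria, none of them showed a loss as large as that of those messenger RNAs. The genes were thus chosen on 3 of the comparisons below, where their fold changes are a description and carry no test. The remaining comparison, between mitoplasts and proteinase K, involves libraries that the choice used. All libraries came from 1 wild-type male Wistar Kyoto rat aged 14 weeks. Its hindlimb muscle was homogenised and pooled before aliquots were taken, so the p-values measure only the spread between aliquots, which may be technical. There were 4 groups of 3 libraries. Centrifuged libraries (crude_RNase) came from crude mitochondria spun down from the homogenate, and captured libraries (IP_RNase) from mitochondria pulled down on magnetic beads. Proteinase K libraries (IP_RNase_ProK) came from captured mitochondria that also received that enzyme. Mitoplast libraries (mitoplast_RNase) came from mitoplasts made from captured mitochondria. RNase A was applied in all 4 groups, so no group shows a preparation without it. The libraries were made from 6.3 ng of RNA for centrifuged mitochondria and 40 ng for the others.

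The mitochondrial chromosome is transcribed into long precursor RNAs, which are cut inside the matrix into messenger, ribosomal and transfer RNAs enclosed by the inner membrane. RNase A degrades RNA that it can reach. Proteinase K digests exposed proteins, including those that shield RNA on the outer surface, and a mitoplast is a mitochondrion whose outer membrane has been removed. Nuclear genomes also carry copies of mitochondrial DNA, and reads from one copy can be counted for another. In the RefSeq gene table of assembly GRCr8, 0 of the 10 ids were matched. Their positions, biotypes and sequences were not used here, and whether they share sequence with the mitochondrial chromosome or with one another was not tested.

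Total counts were 6583452 to 7123045 in centrifuged libraries and 3325430 to 4563254 in the other 9. Mitochondrial genes took 41.2% to 54.0% of the counts after centrifugation and 2.06% to 10.9% elsewhere, with the highest of these in IP_RNase 3. Levels below are CPM, counts per 1000000 after TMM scaling, which sets the typical gene equal between libraries. They are not corrected for gene length, so levels of different genes are not compared. Of 10 skeletal muscle markers, 8 were found in the table, none of them at 0 in any library. They summed to 4605 to 5670 CPM in centrifuged, 378 to 461 in captured, 368 to 383 in proteinase K and 392 to 488 in mitoplast libraries. The 6 fibroblast markers, also never at 0, summed to 1701 to 1860 CPM in centrifuged libraries, 336 to 354 in captured, 321 to 325 in proteinase K and 334 to 341 in mitoplast libraries. The 5 endothelial markers, never at 0 either, summed to 290 to 303 CPM in centrifuged, 277 to 286 in captured, 264 to 268 in proteinase K and 264 to 280 in mitoplast libraries. Counts above 0 do not set these markers apart. The other marker classes were never at 0 either, and the median olfactory receptor gene tested had 30 to 49 counts per library. The part of muscle, fibroblast and endothelial RNA in the results was not tested.

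Relative to the typical gene, the 10 unnamed genes together were about 2 times as high in captured libraries as after proteinase K or in mitoplasts, but relative to the mitochondrial messenger RNAs these groups overlapped. Their summed level was 850, 761 and 849 CPM in captured libraries 1 to 3. It was 420, 402 and 416 CPM after proteinase K and 470, 416 and 364 in mitoplasts. All 3 captured libraries lay above those 6. Centrifuged libraries had 899, 1260 and 1083 CPM, above every captured library. As a share of all counts, by contrast, the 10 genes took 0.0960% ± 0.00467 (SD, n = 3) in captured and 0.0614% ± 0.00450 (SD, n = 3) in centrifuged libraries. The share was 0.0503% ± 0.00129 after proteinase K and 0.0504% ± 0.00619 in mitoplasts (SD, n = 3 each).

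The 13 mitochondrial messenger RNAs summed to 34510 ± 14550 CPM in captured libraries, 14420 ± 2477 after proteinase K and 14430 ± 1769 in mitoplasts (SD, n = 3 each). Centrifuged libraries had 455400 ± 107300 CPM. From captured to proteinase K libraries the mean was 58.2% lower for these messenger RNAs and 49.7% lower for the 10 unnamed genes, and to mitoplasts it was 58.2% and 49.2% lower. For every 1000 mitochondrial messenger RNA counts, the 10 genes had 26.3, 35.9 and 17.0 counts in captured libraries, 34.6, 28.7 and 24.4 after proteinase K and 30.0, 27.3 and 29.3 in mitoplasts. The 3 groups overlapped in this ratio. In centrifuged libraries it was 2.65, 2.29 and 2.26, and the captured mean was 10.98 times the centrifuged mean. This rise was not particular to the 10 genes. With counts scaled on the mitochondrial messenger RNAs, the median log2 fold change, captured minus centrifuged, was 3.814 for all genes and 3.411 for the 10. The choice of genes also left out those with a loss like that of these messenger RNAs.

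**Figure D1:**
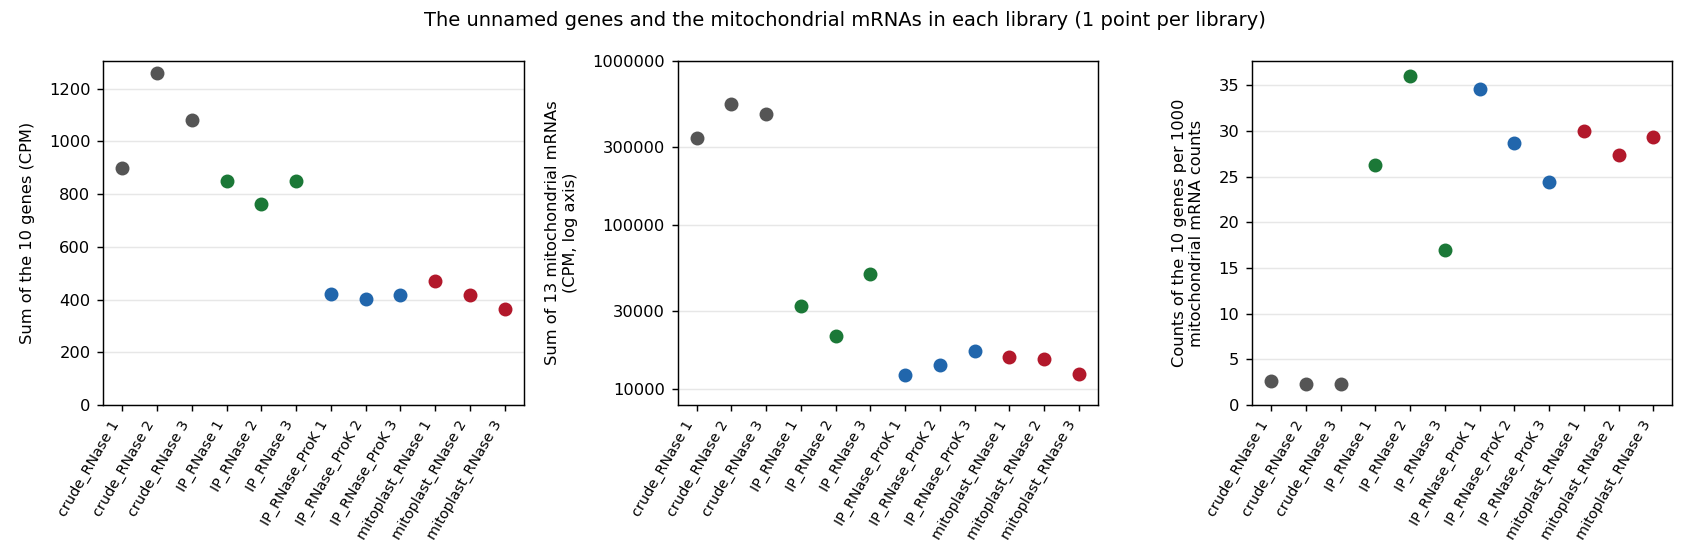
Left, summed CPM of the 10 unnamed genes; middle, summed CPM of the 13 mitochondrial messenger RNAs on a log axis; right, counts of the 10 genes per 1000 mitochondrial messenger RNA counts; each point is 1 library. The unnamed genes stand at 761 to 850 CPM in captured libraries and at 364 to 470 in proteinase K and mitoplast libraries. The ratio on the right is 2.26 to 2.65 after centrifugation against 17.0 to 35.9 in the other 9 libraries. Most genes were higher in captured than in centrifuged libraries relative to the mitochondrial messenger RNAs.

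Within the captured group the unnamed genes spread less than the mitochondrial RNAs. The choice of genes used these same libraries and can favour genes with little spread there, so the ranges are a description. The mitochondrial messenger RNAs had 32320, 21180 and 50040 CPM in captured libraries 1 to 3, a 2.36-fold range, whereas the sum of the 10 genes had a 1.12-fold range. Both sums were lowest in IP_RNase 2. Gene by gene, the highest captured library was 2.09 to 2.91 times the lowest for the 13 messenger RNAs and 1.03 to 1.63 times for the 10 genes. For the mitochondrial ribosomal RNA genes ENSRNOG00000043866 and ENSRNOG00000030478 the range was 6.92-fold and 8.37-fold. IP_RNase 3 was the highest captured library for 5 of the 10 unnamed genes.

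With edgeR's quasi-likelihood test at an adjusted p under 0.05 over 26483 genes, 10 of the 10 genes were called lower after proteinase K than in captured libraries, where 0.110% of all genes were. In mitoplasts 10 of 10 were called lower, where 0.132% of all genes were. The genes were chosen on these comparisons and nothing is read from the counts. Of the 23 genes called lower in both (0.0868%), 10 were these genes, 12 were mitochondrial messenger RNAs and 1 was another unnamed id. Mt-atp8, which encodes an ATP synthase subunit, was the mitochondrial messenger RNA called after proteinase K but not in mitoplasts. The CPM ranges lay below the captured range without overlap for 10 of 10 genes after proteinase K (8.27% of all genes; 8.36% lay above) and in mitoplasts (8.05%; 7.90% above), and in both for 10 (3.55%). The median log2 fold change of the 10 was -0.999 after proteinase K and -1.001 in mitoplasts. For the 13 mitochondrial messenger RNAs the medians were -1.21 and -1.24, and for all genes tested -0.0025 and -7e-04.

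**Figure D2:**
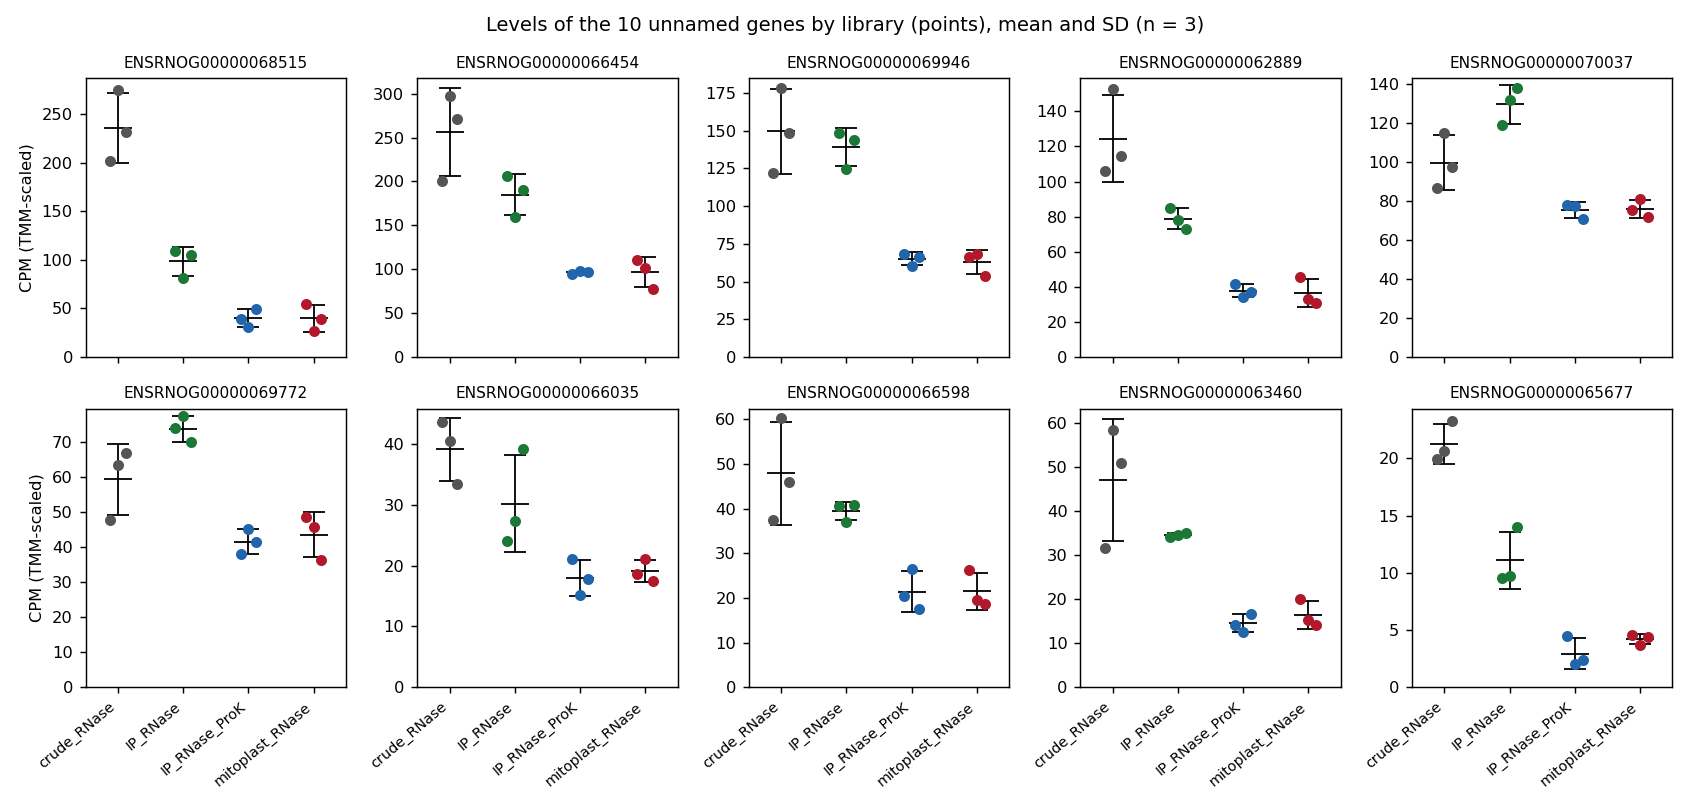
CPM of each unnamed gene (vertical axes from 0, scaled per gene) in the 4 groups; points are libraries, and bars give the mean and SD of 3. In every panel the 3 IP_RNase libraries lie above the 6 libraries of IP_RNase_ProK and mitoplast_RNase, while the place of crude_RNase differs between genes.

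ENSRNOG00000066454 had 640 to 882 raw counts in captured libraries. Its CPM were 206, 159 and 190 there, 94.1, 97.7 and 97.0 after proteinase K, 111, 102 and 78.0 in mitoplasts and 201, 297 and 271 after centrifugation. Captured and centrifuged libraries overlapped, and both lay above the other 6. The log2 fold change from captured libraries was -0.94 ± 0.101 (SE) after proteinase K and -0.94 ± 0.102 in mitoplasts.

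Under TMM scaling, ENSRNOG00000069946 stood at like levels in captured and centrifuged mitochondria. It had 149, 125 and 144 CPM in captured, 122, 179 and 148 in centrifuged, 68.5, 60.2 and 66.5 in proteinase K and 66.2, 68.4 and 53.7 in mitoplast libraries. The first 6 values overlapped, and each was above the remaining 6. Its log2 fold changes from captured libraries were -1.10 ± 0.0973 and -1.15 ± 0.0979 (SE).

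In TMM-scaled CPM, ENSRNOG00000068515 was highest in centrifuged libraries, lower in captured libraries and lowest in the other 6 libraries. It had 202, 275 and 232 CPM in centrifuged, 109, 81.4 and 105 in captured, 39.5, 31.3 and 49.4 in proteinase K and 54.5, 26.9 and 38.8 in mitoplast libraries. The centrifuged range, the captured range and the range of the other 6 libraries did not overlap. The log2 fold changes from captured libraries were -1.30 ± 0.134 and -1.31 ± 0.135 (SE). Its mitoplast libraries spread 2.03-fold, more than those of the other 9 genes.

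ENSRNOG00000062889 had the same order, with 124 ± 24.8 CPM in centrifuged, 78.8 ± 6.05 in captured, 37.7 ± 3.78 in proteinase K and 36.5 ± 8.09 in mitoplast libraries (SD, n = 3 each). Its lowest centrifuged library, at 106 CPM, was above its highest captured library, at 85.1. The log2 fold changes from captured libraries were -1.05 ± 0.114 and -1.11 ± 0.115 (SE).

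ENSRNOG00000070037 and ENSRNOG00000069772 differed from the other 8 in having their highest mean TMM-scaled CPM in captured libraries. ENSRNOG00000070037 had 119, 132 and 138 CPM there, 86.8, 115 and 97.5 after centrifugation, 77.8, 77.5 and 70.7 after proteinase K and 75.2, 80.9 and 71.8 in mitoplasts. Its centrifuged libraries lay between the others without overlap on either side. ENSRNOG00000069772 had 73.9, 77.1 and 69.9 CPM in captured, 47.8, 63.4 and 66.7 in centrifuged, 38.1, 45.1 and 41.2 in proteinase K and 48.5, 45.6 and 36.4 in mitoplast libraries. Its centrifuged range lay below the captured range and overlapped that of mitoplasts. The log2 fold changes from captured libraries were -0.78 ± 0.0857 and -0.77 ± 0.0858 for ENSRNOG00000070037 and -0.83 ± 0.101 and -0.76 ± 0.101 for ENSRNOG00000069772 (SE).

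ENSRNOG00000065677 had few counts. Raw counts were 41, 39 and 61 in captured, 25, 9 and 11 in proteinase K, 22, 19 and 20 in mitoplast and 89, 77 and 83 in centrifuged libraries. The median unnamed gene tested had 28 to 45 counts per library, so in the proteinase K and mitoplast libraries this gene was below it. Its log2 fold changes from captured libraries, -1.86 ± 0.258 and -1.39 ± 0.243 (SE), were the lowest of the 10. Without IP_RNase 3 the value in mitoplasts was -1.18 and no longer called.

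ENSRNOG00000063460 was nearly constant across captured libraries, at 34.0, 34.6 and 35.0 CPM. It had 14.1, 12.7 and 16.7 CPM after proteinase K, 20.1, 15.3 and 14.0 in mitoplasts and 31.6, 58.4 and 51.0 after centrifugation. The captured values lay inside the centrifuged range, and the log2 fold changes were -1.25 ± 0.158 and -1.07 ± 0.155 (SE). ENSRNOG00000066598 had 39.5 ± 2.08 CPM in captured, 21.4 ± 4.54 in proteinase K, 21.5 ± 4.23 in mitoplast and 47.9 ± 11.5 in centrifuged libraries (SD, n = 3 each), with log2 fold changes of -0.89 ± 0.139 and -0.88 ± 0.140 (SE). With DESeq2 the fold changes of ENSRNOG00000066598 were -0.88 in both comparisons and not called.

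ENSRNOG00000066035 had the smallest fold changes of the 10. It had 24.0, 27.4 and 39.2 CPM in captured, 21.1, 15.1 and 17.7 in proteinase K, 18.6, 21.0 and 17.5 in mitoplast and 43.5, 40.4 and 33.4 in centrifuged libraries. The gap below the captured range was narrow, with 24.0 against 21.1 CPM, and IP_RNase 3 stood above the other captured libraries. The log2 fold changes were -0.74 ± 0.147 and -0.66 ± 0.146 (SE). Without IP_RNase 3 they were -0.50 and -0.42, and 9 of the 10 genes were called after proteinase K and 8 of 10 in mitoplasts. The call of ENSRNOG00000066035 was also lost without IP_RNase_ProK 2 (-0.63) or 3 (-0.72), and in mitoplasts without mitoplast_RNase 1 (-0.64) or 3 (-0.61). In both comparisons it was lost as well under library size scaling (-0.68 and -0.61), olfactory receptor scaling (-0.63 and -0.56) and DESeq2 (-0.74 and -0.66).

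For both comparisons with captured libraries, all 10 genes lay below 0 under TMM, library size and olfactory receptor scaling, but scaled on the mitochondrial messenger RNAs 3 of 10 lay below 0 after proteinase K and 4 of 10 in mitoplasts. Under that scaling the medians of the 10 were 0.132 and 0.105, 0 were called in either comparison, and the median of all genes moved by 1.135 and 1.123. Of 26483 genes, 24889 and 24728 were then called higher. Scaling on the olfactory receptor genes moved the median of all genes by 0.108 and 0.109 and left 9 of 10 called in each. Under these 4 scalings the median of the 10 minus that of all genes was -1.001 to -0.995 after proteinase K and -1.017 to -1 in mitoplasts. A scaling shifts all genes by nearly the same amount, so this difference had to stay nearly the same and nothing is read from it. The summed fibroblast and endothelial markers were lower after proteinase K than in captured libraries, without overlap, with means of 323 against 344 CPM and 265 against 281 CPM. The muscle markers overlapped between these groups, and in mitoplasts all 3 classes overlapped their captured values. Other marker classes differed in direction. Means were higher after proteinase K for macrophage and leukocyte (287 against 280 CPM), adipocyte (142 against 137) and satellite cell (124 against 120) markers. Smooth muscle and pericyte markers (220) and Schwann cell and nerve markers (129) had like means, and erythroid markers were lower (55.1 against 58.3). All these ranges overlapped those of captured libraries. The part of these RNAs in the result was not tested.

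**Figure D3:**
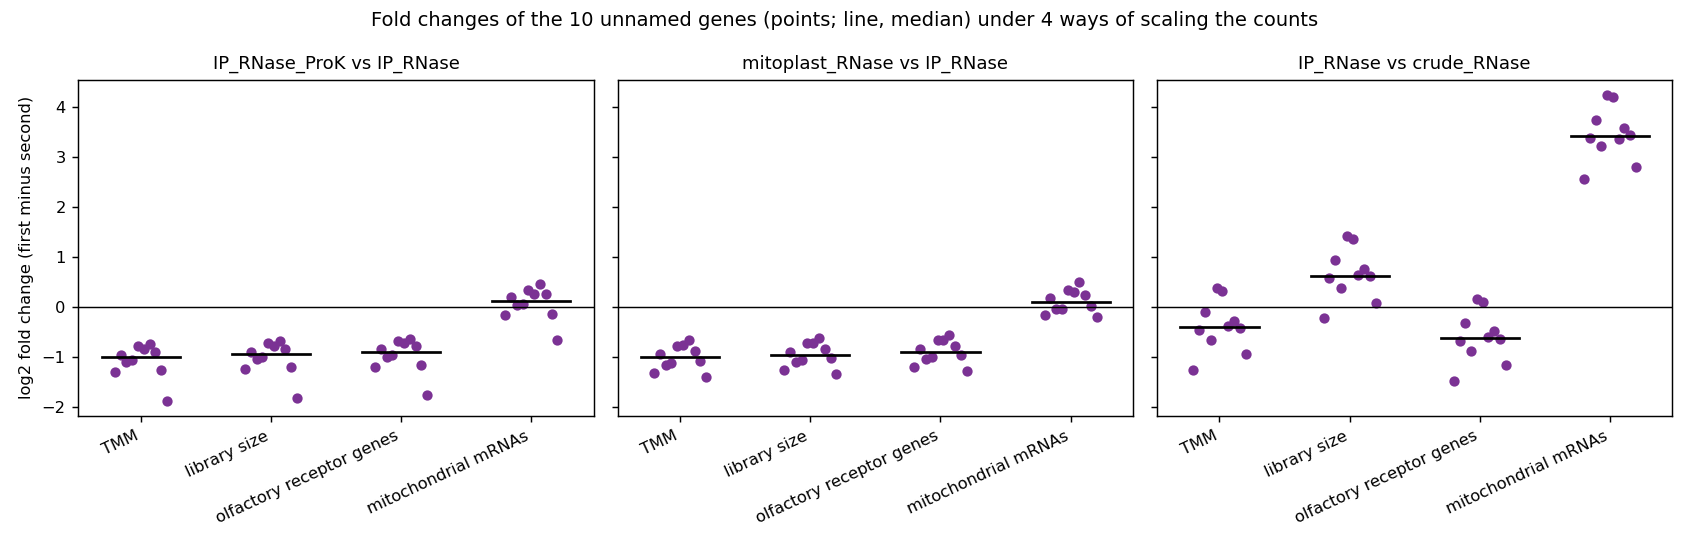
Log2 fold changes of the 10 unnamed genes (points, with the median as a line) in 3 comparisons under TMM, library size, olfactory receptor gene and mitochondrial messenger RNA scaling. Against IP_RNase the medians are -1.001 to -0.889 except under mitochondrial scaling, where they are 0.132 and 0.105, and for IP_RNase against crude_RNase the median runs from -0.617 to 3.411.

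Between captured and centrifuged libraries the 10 genes went in both directions, as far as the rule allowed, and the direction depended on the scaling. Their log2 fold changes, captured minus centrifuged, ran from -1.25 to 0.38 with a median of -0.40. Those of the 13 mitochondrial messenger RNAs ran from -4.04 to -2.67 with a median of -3.69, and the median of all genes tested was 0.0069. Of the 10 genes 5 were called lower (5.09% of all genes) and 2 higher (1.26%). The 5 were ENSRNOG00000068515 at -1.25 ± 0.115, ENSRNOG00000065677 at -0.93 ± 0.187, ENSRNOG00000062889 at -0.66 ± 0.101, ENSRNOG00000066454 at -0.46 ± 0.0959 and ENSRNOG00000063460 at -0.43 ± 0.135 (SE). The 2 were ENSRNOG00000070037 at 0.38 ± 0.0853 and ENSRNOG00000069772 at 0.32 ± 0.0996 (SE). ENSRNOG00000066035, ENSRNOG00000066598 and ENSRNOG00000069946 were not called, at -0.38 ± 0.134, -0.27 ± 0.127 and -0.10 ± 0.0915 (SE). By range, 3 genes lay lower (10.8% of all genes) and 2 higher (8.61%) without overlap. Among the 5498 unnamed genes tested, 0.909% were called lower and 2.64% higher. RNA input, depth, the muscle, fibroblast, endothelial and erythroid markers and the mitochondrial share all differed between these groups, and their part was not tested.

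**Figure D4:**
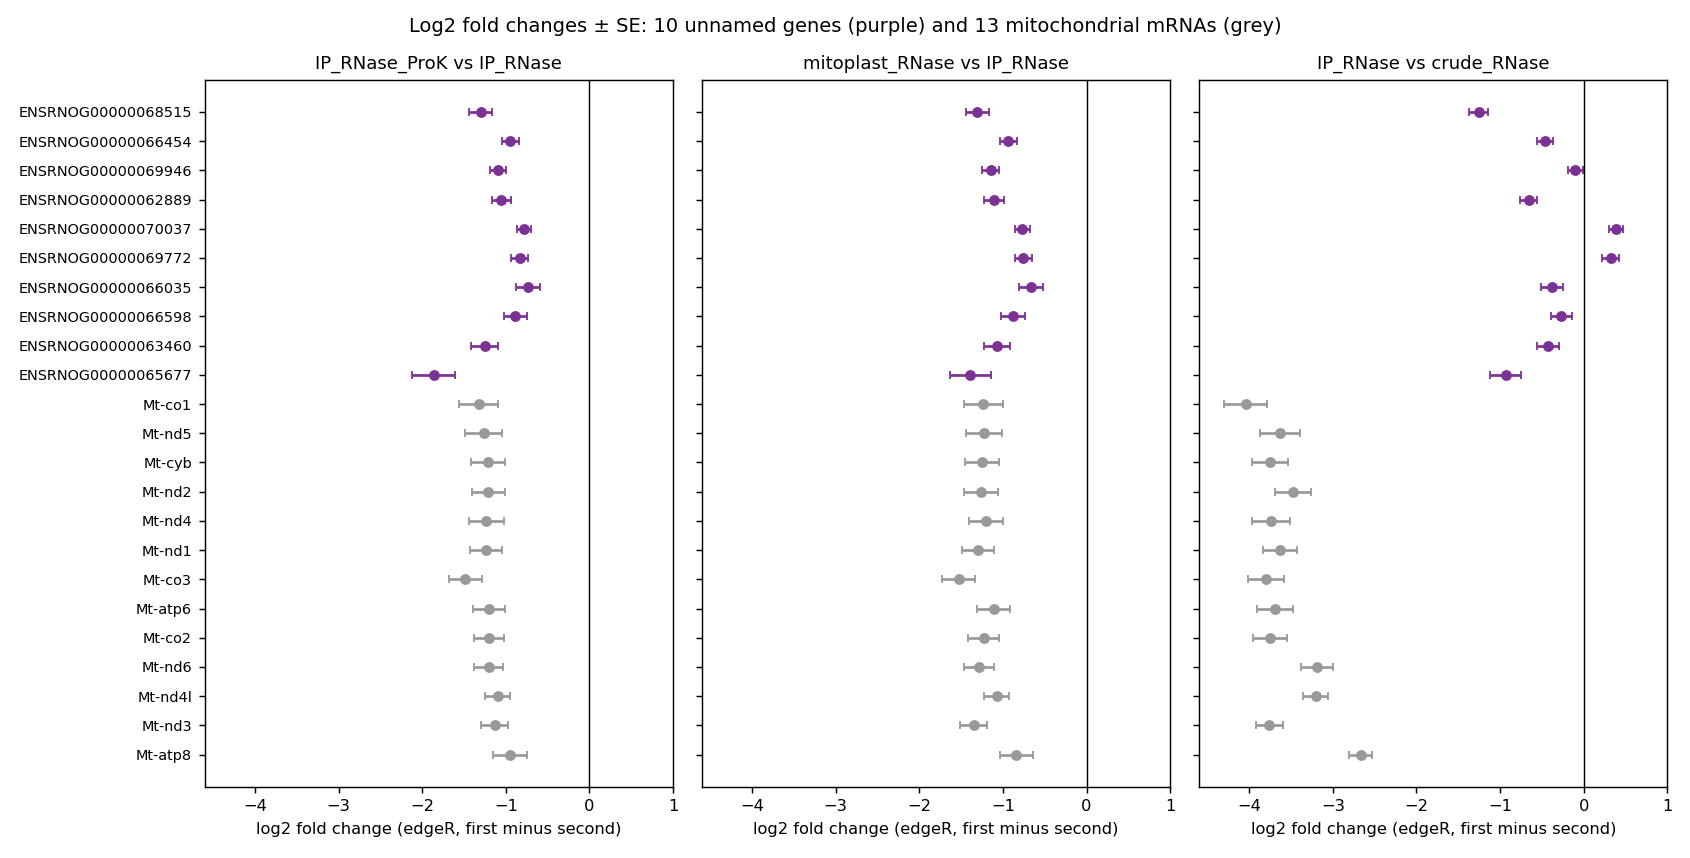
Log2 fold changes (edgeR, first group minus second, ± SE) of the 10 unnamed genes and the 13 mitochondrial messenger RNAs in 3 comparisons. Against IP_RNase both sets lie below 0, and for IP_RNase against crude_RNase the unnamed genes run from -1.25 to 0.38 while the mitochondrial messenger RNAs run from -4.04 to -2.67.

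Scaled to library size, 8 of the 10 genes were called higher and 0 lower in captured than in centrifuged libraries, with a median of 0.628, while the median of all genes moved by 1.024 and 189 genes were lower and 25094 higher. Scaled on the mitochondrial messenger RNAs, 10 were called higher, with a median of 3.411. The median of all genes moved by 3.807, and 26435 of 26483 genes were called higher and 14 lower. Scaled on the olfactory receptor genes, 8 were called lower and 0 higher, with a median of -0.617, and 4196 genes were lower and 50 higher. ENSRNOG00000069946 was among these 8, at -0.31, whereas by library size it was called higher, at 0.94. The median of the 10 minus that of all genes was -0.408 to -0.402 under these 4 scalings, which follows from the shift common to all genes. Without crude_RNase 2 the fold change of ENSRNOG00000066598 was -0.07 and that of ENSRNOG00000069946 was 0.05. ENSRNOG00000069772 lost its call without crude_RNase 1 (0.18), IP_RNase 1 (0.32) or IP_RNase 2 (0.29). ENSRNOG00000063460 lost its call when any of 7 libraries was left out, with -0.23 without crude_RNase 2 and -0.36 without crude_RNase 3. It also did so without any one IP_RNase library or IP_RNase_ProK 1 or 3, at -0.44 to -0.42. ENSRNOG00000066598 was called without crude_RNase 1 (-0.43), and ENSRNOG00000066035 without crude_RNase 3 (-0.47) or IP_RNase 3 (-0.62).

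The rule set no condition on the difference between mitoplast and proteinase K libraries. It did require both to be lower than captured libraries, which favours genes with like values in both, so the values of the 10 are a description here too and nothing is read from their count. By edgeR's quasi-likelihood test 0 of all 26483 genes passed (0%), the 10 included. At an unadjusted p under 0.05 there were 741 genes in all and 0 of the 10, and DESeq2 also called 0. The log2 differences, mitoplast minus proteinase K, ran from -0.05 to 0.47 with a median of 0.01. Differences were below 0 for 3 of the 10 genes under TMM, 5 under library size and 6 under mitochondrial scaling. For ENSRNOG00000070037 the difference was 0.01 with a 95% interval of -0.17 to 0.19, the narrowest of the 10. For ENSRNOG00000066454 it was 0.01 with -0.20 to 0.22, and for ENSRNOG00000068515 it was -0.01 with -0.30 to 0.29. The interval was widest for ENSRNOG00000065677, at 0.47 with -0.14 to 1.09, at 9 to 25 counts per library. Without IP_RNase_ProK 1 that difference was 0.95, without IP_RNase_ProK 2 it was 0.27, and it was called in neither case. The ranges of both groups overlapped for 10 of 10 genes, while 4.76% of all genes lay lower and 4.71% higher in mitoplasts without overlap. The 13 mitochondrial messenger RNAs differed by -0.22 to 0.11, and 0 passed.

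**Figure D5:**
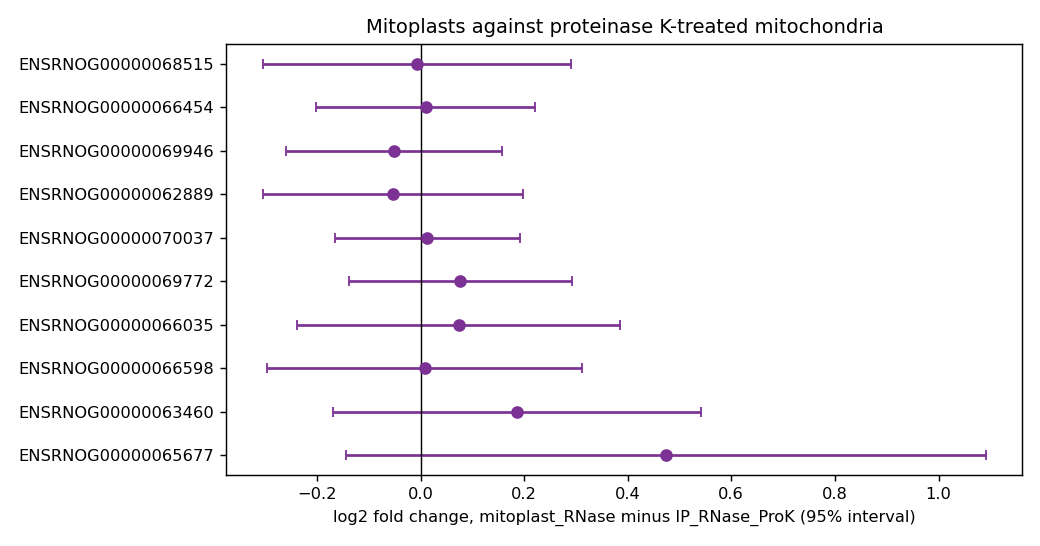
Log2 difference, mitoplast_RNase minus IP_RNase_ProK, for each of the 10 unnamed genes, with its 95% interval from the edgeR fit. Every interval includes 0, and the estimates run from -0.05 to 0.47.

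Across the 12 libraries the log2 CPM of the 10 genes had a Pearson's r of 0.591 to 0.977 over the 45 pairs, with a median of 0.883. Over the 9 bead-based libraries it was 0.706 to 0.982, with a median of 0.902. These values are a description, since the rule chose genes that differ the same way between the same libraries. Against the mean standardised profile of the 10, ENSRNOG00000069946 had the highest r, 0.988, and ENSRNOG00000070037 the lowest, 0.830. The 13 mitochondrial messenger RNAs had r of 0.807 (Mt-atp8) to 0.843 (Mt-co3, a subunit of cytochrome c oxidase) with that profile.

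Among 18754 other genes with a mean of at least 50 counts, the named genes with the highest r to that profile were RGD1309350 (0.942), Lap3 (0.929), Acsl4 (0.920), Pid1 (0.919) and Mrpl3 (0.917), each over 12 libraries that share the same scaling. Lap3 is a leucine aminopeptidase, Acsl4 a long-chain acyl-CoA synthetase and Mrpl3 a protein of the mitochondrial ribosome. Their log2 fold changes from captured libraries were -0.33 to -0.14 after proteinase K and -0.30 to -0.18 in mitoplasts, and none was called in either. The unnamed genes with the highest r were ENSRNOG00000070022 (0.936), ENSRNOG00000067291 (0.916), ENSRNOG00000065385 (0.909), ENSRNOG00000069100 (0.909) and ENSRNOG00000063980 (0.849).

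Few other unnamed genes lay near the 10, as the choice itself took unnamed ids that were lower in both comparisons. Of 5498 tested, 12 were called lower after proteinase K and 16 in mitoplasts, the 10 included. ENSRNOG00000067427 was called in both and is not among the 10. Its raw counts were 13, 12 and 19 in captured, 3, 3 and 3 in proteinase K, 5, 5 and 2 in mitoplast and 8, 9 and 11 in centrifuged libraries, all below those of the median unnamed gene. ENSRNOG00000065385 had log2 fold changes of -0.65 ± 0.165 and -0.78 ± 0.168, and ENSRNOG00000069100 of -0.52 ± 0.148 and -0.81 ± 0.154 (SE). Both were called lower in mitoplasts and not after proteinase K. The same held for ENSRNOG00000066507, ENSRNOG00000069830 and ENSRNOG00000063386, at -0.47, -0.50 and -0.48 in mitoplasts. ENSRNOG00000070205 was called lower after proteinase K (-0.40) and not in mitoplasts (-0.25). ENSRNOG00000066035, just inside the rule, stood at -0.74 and -0.66.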

How the data were processed

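RNA of 12 mitochondrial preparations was sequenced after ribosomal RNA depletion, per the labels' protocols. The authors deposited a table of raw whole-number counts for each gene. FastQC 0.74, cutadapt 4.6, STAR 2.7.11a, HTSeq and the build mRatBN7.2 come from the submitters' processing notes. Annotation release, strandedness of counting and the handling of multiply matching reads: not given in the sources used here. Libraries were grouped by title (for crude libraries the source label names immunoprecipitation instead) and columns matched by description, with 0 columns of other samples.

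A minimum count of 10 in filterByExpr left 26483 genes, the 10 included. A single edgeR 4.0.16 model (R 4.3.3) held all 12 libraries in 4 groups. It used TMM, quasi-likelihood F tests and Benjamini-Hochberg adjustment over all genes in each comparison, at 0.05. The SE is the absolute log2 fold change divided by the square root of F. Likeness used log2 CPM with a prior count of 2. The steps were tested on simulated data. The 10 genes and all lists were chosen with earlier results of these data known. Named genes were the 10, the mitochondrial messenger and ribosomal RNAs, and the 5 named and 5 unnamed genes most like the 10. Genes at the edge of the rule were named after their values were seen. Alternatives were other scalings, DESeq2 1.42.0, other count filters, fits of only the groups compared, a replicate block and leaving out each library.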

Additional observations from a re-analysis of the deposited data

How the results depend on the processing

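Against captured libraries (IP_RNase), 8 to 10 of the 10 genes were called lower in every alternative except scaling on the mitochondrial messenger RNAs, where 0 were called in either comparison, and except that a minimum mean of 50 counts left 9 genes, all called. The gene lost under library size and olfactory receptor scaling was ENSRNOG00000066035, and DESeq2 lost it and ENSRNOG00000066598. Leaving out 1 library gave 9 to 10 after proteinase K and 8 to 10 in mitoplasts. As the genes were chosen on these comparisons in the same libraries, nothing is read from these counts. Under mitochondrial scaling the fold changes above 0 were 0.21, 0.0499, 0.0574, 0.35, 0.27, 0.46 and 0.27 after proteinase K and 0.18, 0.34, 0.31, 0.51, 0.24 and 0.0294 in mitoplasts. Between IP_RNase and crude_RNase, where 5 were called lower and 2 higher, there were 0 and 8 by library size, 8 and 0 on olfactory receptor genes, 0 and 10 on mitochondrial messenger RNAs, 3 and 1 with DESeq2, 3 and 2 with a minimum mean of 50 counts, and 4 and 1 with only the 6 libraries compared, and 4 to 6 and 1 to 2 when 1 library was left out. Fold changes that changed sign there were 0.58, 0.94, 0.39, 0.64, 0.77, 0.62 and 0.093 by library size and 2.56, 3.38, 3.74, 3.22, 3.36, 3.58, 3.45 and 2.80 on mitochondrial messenger RNAs. Beyond the choice of scaling, the cause was not tested. Between mitoplast_RNase and IP_RNase_ProK 0 of the 10 were called in every alternative run.

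Over all genes, 37 were called after proteinase K, but 23 by library size, 24890 on mitochondrial messenger RNAs, 14 with DESeq2, 143 with only the 6 libraries and 24 to 88 without 1 library. In mitoplasts 41 were called, but 27 on olfactory receptor genes, 24728 on mitochondrial messenger RNAs, 23 with DESeq2, 115 with only the 6 libraries and 25 to 78 without 1 library. Against crude_RNase 1684 were called, but 25283, 4246 and 26449 by library size, olfactory receptor and mitochondrial scaling. Between mitoplasts and proteinase K-treated mitochondria 0 were called, but 1 on mitochondrial messenger RNAs, 11 with only the 6 libraries and 0 to 2 without 1 library.

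Deviations from the group means correlated at -0.10 to 0.07 between libraries with the same replicate number and at -0.09 to 0.12 between those with different numbers. Of 12 libraries, 6 correlated best with a library of their own number. Whether libraries with the same number shared a batch was not tested. With the replicate block 10, 10, 5 and 2 of the 10 genes were called in the same 3 comparisons, as without it. Depth limits ENSRNOG00000065677 most, with 9 to 25 counts in the proteinase K and mitoplast libraries.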
